A study of Macaca fascicularis with 11 samples.

Results

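The 8187 cytosines of chromosome 10 were 13.3% of the 61399 cytosines for which methylation was listed in all 11 animals of this study of skeletal muscle. They were chosen by their chromosome name alone, on both strands. The chromosome itself was singled out for its measured number of listed cytosines, its share of plus-strand positions and its mean methylation, so these 3 values are given as descriptions without a test. DNA came from quadriceps biopsies of 11 adult male Cynomolgus macaques (Macaca fascicularis), 1 biopsy per animal taken under ketamine anaesthesia, with single doses of amoxicillin and meloxicam, no experimental treatment and no second group. Methylation was measured by reduced representation bisulfite sequencing (RRBS), in which DNA is cut at sites rich in CpG, treated with bisulfite so that unmethylated cytosines are read as thymine, and sequenced. Each value is a methylation ratio from 0 to 1, printed here also as a percentage. A minimum of 10 reads per CpG had been applied, and the depth of each cytosine beyond that is unknown.

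In vertebrate genomes most cytosines in CpG pairs carry a methyl group, and the dense clusters of CpG called CpG islands, many of them at gene starts, are mostly free of it. Repeated elements that hold many CpG pairs are usually methylated in adult tissue. A muscle biopsy holds nuclei of muscle fibres together with those of satellite, connective tissue and vessel cells, so a ratio is an average over all of them.

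Chromosome 10 held 15.0% of the 54584 cytosines on the 20 numbered chromosomes, 1.99 times the count of chromosome 1, which came next with 4106. Its listed positions ran from 12940 to 96524456 in the genome of Yan et al., a span of 96.5 Mb that ranked 15th in length, and its density of 84.8 cytosines per Mb was the highest of the 20. The other chromosomes had a median of 16.1 per Mb and at most 61.7, on chromosome 19. The excess was unequal between methylation classes. With the mean ratio over the 11 animals used to class each cytosine as low (below 0.3), intermediate (0.3 to 0.7) or high (above 0.7), chromosome 10 had 51.0 high cytosines per Mb, 2.97 times the next value, 17.2 on chromosome 19. It had 13.4 intermediate cytosines per Mb, 1.46 times the next value. It had 20.4 low cytosines per Mb, behind chromosomes 19 and 16 with 35.4 and 25.3. So chromosome 10 stood apart in its high cytosines and lay within the range of the other chromosomes in its low ones, which the plot of low against high cytosines shows.

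**Figure D1:**
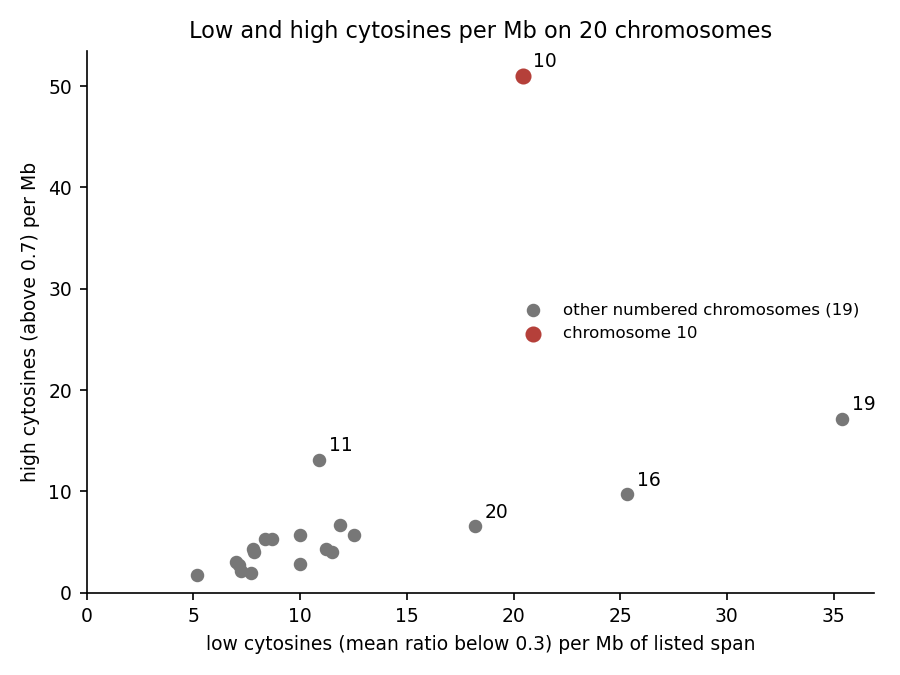
Low cytosines per Mb of listed span (horizontal axis) against high cytosines per Mb (vertical axis), 1 point per numbered chromosome. Chromosome 10 has 51.0 high cytosines per Mb and no other chromosome has more than 17.2, while its 20.4 low cytosines per Mb lie below the 35.4 of chromosome 19.

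High cytosines were therefore the largest class on chromosome 10, whereas low ones were on the other chromosomes pooled. Per animal, 24.5% ± 0.382 (SD, n = 11) of its cytosines were low, 15.9% ± 0.887 were intermediate and 59.6% ± 0.741 were high. On the other 19 chromosomes pooled, 59.6% ± 0.570 were low, 12.7% ± 0.598 intermediate and 27.8% ± 0.206 high. The animals did not overlap between these sets in the low or in the high share: the high share ranged from 58.9% to 61.3% with a median of 59.3% on chromosome 10, and from 27.4% to 28.1% with a median of 27.8% elsewhere. The chromosome was singled out for its mean methylation, so this separation goes with that choice and is given as a description only. Among single chromosomes the closest was chromosome 11, where high cytosines also outnumbered low ones, with 46.9% ± 0.341 high and 39.5% ± 0.562 low. The order of the smaller classes on chromosome 10 turned with the class bounds: with 0.2 and 0.8, 21.2% were low and 28.1% intermediate. A ratio mean above 0.9 was found for 2618 cytosines of chromosome 10, or 32.0%. The mean methylation of the chromosome was 63.7% ± 0.347 over animals, from 63.2% to 64.4%, against 34.8% ± 0.680 on the others pooled.

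The lean to the plus strand went with the level. Of the high cytosines of chromosome 10, 3594 were plus-strand and 1330 minus-strand positions, which is 73.0% plus. The intermediate cytosines were 68.1% plus, with 879 against 412. The low cytosines were 51.0% plus, with 1006 against 966, so the low class was close to balanced. On the other 19 chromosomes the plus share of high cytosines ran from 41.6% to 60.9%, with a median of 50.3%, and the highest values were 60.9% on chromosome 11 and 59.9% on chromosome 12. Because of this split, the plus-strand cytosines of chromosome 10 had a mean methylation of 68.3% ± 0.372 (SD, n = 11) and the minus-strand ones 54.4% ± 0.430. Both were above the corresponding means of the other chromosomes, 36.4% and 33.3%, in all 11 animals. That also goes with the choice of the chromosome by its mean methylation. A cytosine and its partner on the opposite strand of the same CpG were both listed for 7.02% of the 7650 CpGs of chromosome 10, within the 3.92% to 11.0% of the other chromosomes.

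Along the chromosome, 96 of 97 blocks of 1 Mb held listed cytosines, and the 62nd block was empty. The median was 77 per occupied block, with quartiles of 37 and 112.8, against medians of 8 to 68 on the other chromosomes. Density was thus high over most of the chromosome and did not come from a few blocks: the 5 fullest held 15.9% of its cytosines. These 5 were the first block with 397 cytosines, the second with 242, the 38th with 232, the 31st with 230 and the third with 202. Their mean methylation over the 11 animals was 65.7% ± 0.482 (SD), 58.2% ± 0.489, 58.0% ± 0.662, 68.1% ± 0.750 and 73.3% ± 1.09. In each of them the high cytosines were the largest class, and plus-strand positions made up 64.0% to 77.4%.

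High cytosines outnumbered low ones in 83 of the 96 occupied blocks, and low ones outnumbered high ones in 12. On the other chromosomes high cytosines were the more numerous of the 2 classes in 570 of 2069 blocks, or 27.5%, and on chromosome 11, the nearest, in 63.0%. Among the 89 blocks of chromosome 10 with at least 20 cytosines, the block mean was above 50% in 79. Such blocks were 159 of 754 elsewhere. Among the 89 blocks of chromosome 10 the lowest mean was 38.2%, in the 92nd block with 135 cytosines. The highest of the 89 was 87.7%, in the 47th block, whose 37 cytosines were all on the plus strand and of which none was low. The level of these blocks was repeatable between animals. The SD of the block mean over the 11 animals had a median of 0.975 percentage points in the 89 blocks. It reached 4.80 in the 61st block, which held 23 cytosines and in which the animals ran from 46.0% to 61.4%.

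The early blocks carried more of the excess than the late ones. The division after the 50th block was set after the values were seen. The first 50 blocks held 5026 cytosines, a median of 83 per block, with a mean methylation of 67.4% ± 0.432 (SD, n = 11). The 46 later occupied blocks held 3161, a median of 62 per block, with a mean of 57.8% ± 0.348. The number of low cytosines was nearly equal, 1007 and 965, so the difference lay in the 3271 against 1653 high ones and, to a smaller extent, in the 748 against 543 intermediate ones. High cytosines were 79.7% plus in the early blocks and 59.6% plus in the later ones, and low cytosines were 52.5% and 49.4% plus. Taken in groups of 10 blocks, the plus share of high cytosines was between 73.2% and 84.1% in the first 6 groups, between 60.1% and 66.4% in the next 3, and 44.8% in the last group, blocks 91 onward. The plot of blocks by strand and class shows high plus-strand cytosines forming the tallest bars in the early blocks. Low cytosines were balanced only in total: in the groups of 10 blocks their plus share ran from 37.7% to 57.5%, leaving aside 1 group with 13 low cytosines.

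**Figure D2:**
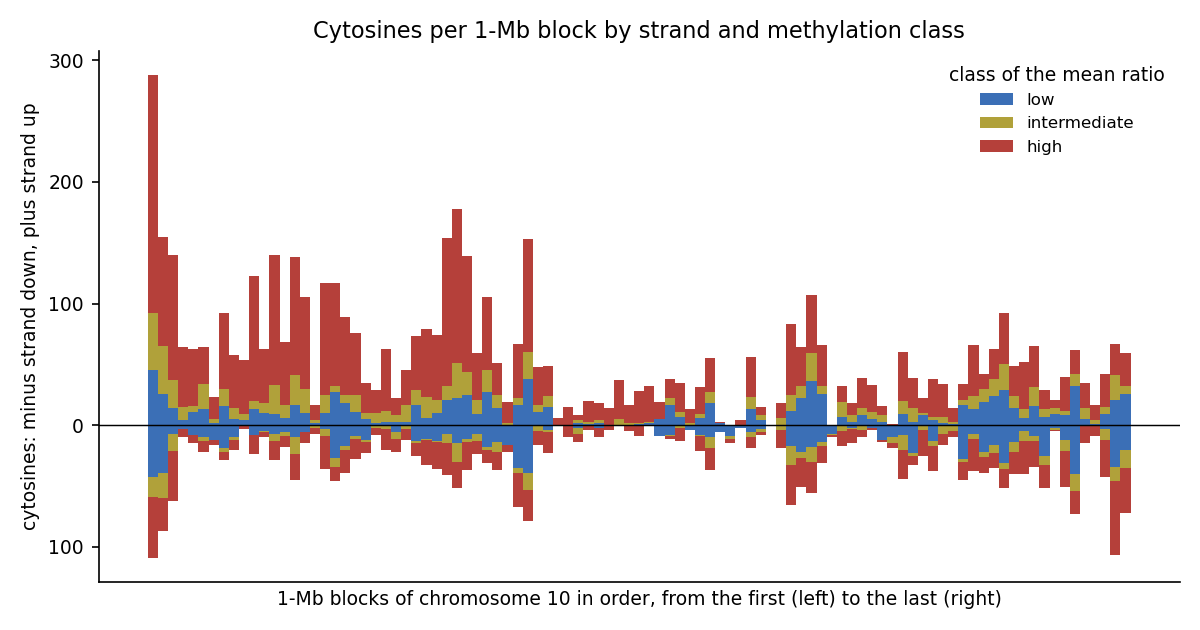
Number of listed cytosines in each 1-Mb block of chromosome 10, in order along the chromosome, with plus-strand cytosines drawn upward, minus-strand cytosines downward, and colours for the class of the mean ratio over 11 animals. The first block holds 288 plus-strand and 109 minus-strand cytosines, and high cytosines make up most of the plus-strand bars in the early blocks.

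Cytosines were joined into runs over both strands, and a new run was begun where the gap to the next listed cytosine was over 1000 bp. A run of 1 was called isolated, 2 to 4 cytosines a small run and 5 or more a dense run. The gap was a clear dividing line, since only 4 gaps lay within 100 bp below it and 12 within 100 bp above it, against 1859 gaps over 1000 bp in all. Chromosome 10 had 1860 runs, of which 246 were isolated, 895 small and 719 dense. In spite of its density its cytosines were not packed into denser runs: 3.00% were isolated, 32.6% in small runs and 64.4% in dense runs. On the other 19 chromosomes pooled these shares were 3.76%, 32.1% and 64.2%, and the dense share ran from 58.3% to 73.1%, with chromosome 10 ranking 11th. Dense runs of chromosome 10 had a median of 6 cytosines and at most 22, against a median of 7 and at most 225 elsewhere. The higher density therefore came as more runs of ordinary size. The isolated share was 2.23% in the first 50 blocks and 4.24% in the later ones, and the dense share 68.8% and 57.3%.

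What filled the runs differed. Of the 719 dense runs of chromosome 10, 478 had a high mean, 115 an intermediate one and 126 a low one. Of the 3678 dense runs elsewhere, 1010 were high, 379 intermediate and 2289 low. Dense runs made only of low cytosines were 15.2% on chromosome 10 and 56.4% elsewhere, and those made only of high cytosines 26.4% and 15.5%. Dense runs that held both low and high cytosines were 27.4% on chromosome 10 and 7.04% elsewhere, so low and high cytosines shared a run more often there. Runs with cytosines of 1 strand only were about as frequent on chromosome 10 (69.4%) as elsewhere (67.4%), but 378 of them were plus-strand and 121 minus-strand runs, against 1195 and 1283 elsewhere. Among high runs of 1 strand on chromosome 10, 283 were plus and 57 minus, while among low ones 35 were plus and 48 minus. Isolated cytosines showed the same order of classes in a milder form: 49.6% were high, 14.2% intermediate and 36.2% low, with a mean of 54.3% against 64.3% in dense runs. Elsewhere isolated cytosines had a mean of 36.4% and those of dense runs 31.1%, so the order of these means was the reverse of that on chromosome 10.

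The dense run with the most cytosines was taken in each class. The low one, chr10:91494490-91494627, had 20 cytosines in 138 bp, all of them low, and run means of 1.37% (lowest animal), 2.50% (median) and 5.54% (highest). The animals numbered 2606, 2646, 5296 and 5272 had 4.37% to 5.54% there and the other 7 had 1.37% to 3.32%, without overlap. As described below, these animals were picked for their small share of fully unmethylated ratios among all listed cytosines. Their higher values in a run of low cytosines go with that choice and are given as a description only. The intermediate one, chr10:37059406-37060026, had 22 cytosines in 621 bp and run means of 40.1%, 42.9% and 46.5% in the same order. Its level was a mixture along the run rather than a shared intermediate level, since 9 of its cytosines were low, 6 intermediate and 7 high. The high one, chr10:29102888-29103471, had 21 cytosines in 584 bp, 17 of them high, and run means of 75.5%, 79.7% and 85.8%. The SD over animals was 1.38, 1.93 and 2.80 percentage points in these runs. No gene annotation of this genome was used, so the genes near these runs are not named.

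A recurring spacing was found among the high and intermediate cytosines of the chromosome. It was noticed in these data and is described without a test. Distances were taken between neighbouring listed cytosines of the same strand up to 100 bp apart, 3404 of them ending at a high cytosine of chromosome 10. Of these, 21.3% were 4 bp, 13.1% were 8 bp and 5.26% were 44 bp. On the other 19 chromosomes pooled, 12.3%, 8.16% and 2.05% of 9067 such distances were. Single chromosomes came close to or above chromosome 10: chromosome 11 had 20.7%, 12.4% and 4.82%, and chromosome 12 had 14.2% at 8 bp. Distances that were any multiple of 4 bp made up 56.4% on chromosome 10, 56.2% on chromosome 11, 50.1% on chromosome 12 and 47.5% on chromosome 13, while the median of the other 19 was 33.1%. At intermediate cytosines multiples of 4 bp were 49.0% on chromosome 10, 40.3% on chromosome 11 and 26.7% on the others pooled without chromosome 11. At low cytosines they were 25.9%, against 21.0% on the others pooled and 17.6% to 22.7% on each of them. Multiples of 4 bp were thus more frequent on chromosome 10 than on the others pooled in all 3 classes. Chromosome 11 also had more of them at high and intermediate cytosines. The distance of 44 bp was an exception at intermediate cytosines, with 1.96% on chromosome 10 and 0.524% on chromosome 11. On the others pooled without chromosome 11 it was 0.492%. The plot of same-strand distances shows the high and the low class.

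**Figure D3:**
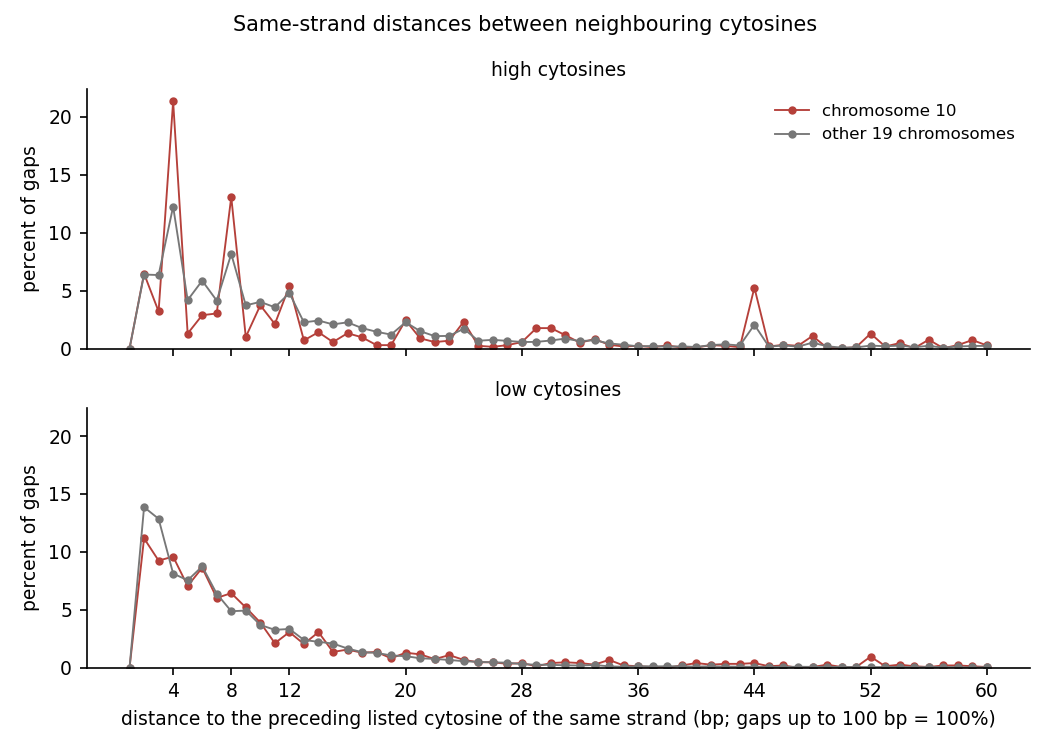
Percentage of same-strand distances of each length up to 60 bp between neighbouring listed cytosines, for high cytosines (upper panel) and low cytosines (lower panel), on chromosome 10 (red) and the other 19 numbered chromosomes (grey). Peaks at 4, 8 and 44 bp are taller on chromosome 10 for high cytosines, at 21.3%, 13.1% and 5.26%, and the lines lie closer together for low cytosines.

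Some of the distances recurred in the same order. A fragment here is a string of same-strand cytosines with distances of at most 100 bp. Distances of 4, 8 and 4 bp in a row were found in 153 fragments of chromosome 10 and in 140 fragments of the other 19 chromosomes together, 42 of these on chromosome 11. They were 14.7% of the fragments with at least 4 cytosines on chromosome 10, 8.75% on chromosome 11 and 2.53% on the other 19 pooled. The fragments were spread over 62 blocks of chromosome 10, 127 in the first 50 blocks and 26 later, and 130 of the 153 were on the plus strand. Their mean methylation was 81.0%, from 44.9% to 96.3%, and none was low. The 140 fragments elsewhere had a similar mean of 82.4%, from 3.10% to 98.6%, with 6 of them low, and 79 were on the plus strand. A fragment of exactly 5 cytosines with distances of 4, 8, 4 and 44 bp was found 32 times on chromosome 10, always on the plus strand and in 25 different blocks, 11 times on chromosome 11 and at most 3 times on any other. The first along chromosome 10 was chr10:1335299-1335359, with a mean of 90.6%. The mirrored order, 44, 4, 8 and 4 bp, was found 23 times in all, 8 of them on chromosome 10, always on the minus strand there, 0 on chromosome 11 and at most 4 on any other. Other orders also recurred on chromosome 10, such as 4, 8 and 48 bp in 17 fragments and 4, 12 and 44 bp in 12. Chromosome 11 had 3 and 9 of these. Fragments with at least 4 cytosines numbered 1039 on chromosome 10 and 480 on chromosome 11. Distances were listed by rising position on both strands, so a minus-strand copy of the string of 4, 8, 4 and 44 bp appears as its mirrored order. Read along its own strand, this string was thus found at 32 plus-strand and 8 minus-strand places of chromosome 10. No sequence of this genome was used. The stated aligner settings include -w 100, which limits how many equally good matches of a read are counted, and to which of them such a read was assigned is not given in the sources used here. Whether the fragments are copies of a repeated sequence, and the part of such reads in the density, strand share, level and spread between animals of chromosome 10, was not tested. Fragments with the 4, 8 and 4 bp string held 900 of the 8187 cytosines, or 11.0%.

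Before the spread between animals is compared, 4 animals need mention. The animals numbered 2606, 2646, 5296 and 5272 had a ratio of exactly 0 at 12.5% to 14.3% of all listed cytosines and the other 7 at 22.0% to 28.4%. On chromosome 10, at cytosines for which the other 10 animals averaged below 0.1, these 4 had means of 4.61% to 5.66% and the other 7 of 3.03% to 3.20%. The 4 animals were picked by their share of fully unmethylated ratios, so their higher means at such cytosines go with that choice. Their mean methylation of the chromosome, 63.5% to 64.1%, lay within the 63.2% to 64.4% of the other 7. Their intermediate share was 16.4% to 17.1%, above the 14.1% to 16.1% of the other 7, so they stood apart in more than the low cytosines. The 9 main tests of spread were also made without them, an alternative chosen after seeing the data.

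Spread was measured as the mean absolute difference between an animal's ratio and the mean of the other 10 animals, in percentage points, with the class of a cytosine set by those other 10. High cytosines of chromosome 10 varied less between animals than high cytosines elsewhere. The spread was 3.48 (lowest animal), 3.65 (median) and 4.72 (highest) on chromosome 10 and 4.92, 5.38 and 5.80 on the other 19 chromosomes, and no animal of the first set reached the lowest of the second. The mean difference was -1.52 ± 0.198 percentage points (SD, n = 11), in the same direction in 11 of 11 animals. The exact two-sided permutation test over all 2048 sign changes gave p = 0.000977, the smallest it can give, and adjusted p = 0.00146 by the Benjamini-Hochberg method over 9 tests. Each animal was compared with the mean of the others over the same cytosines, so the 11 differences are not independent of each other. The p-values of this test thus describe agreement between animals at these cytosines, not how unusual chromosome 10 is among chromosomes. Intermediate cytosines varied less on chromosome 10 as well. Their spread was 7.43, 8.39 and 10.7 on chromosome 10 and 10.1, 11.7 and 12.9 elsewhere, with ranges that overlapped although every animal was lower on chromosome 10. The mean difference was -2.82 ± 0.615 (adjusted p = 0.00146, exact permutation test). Both differences had the same direction against each of the other 19 chromosomes taken singly, a comparison added after seeing the data, with adjusted p of at most 0.00210 over 57 permutation tests. For low cytosines the spread was higher on chromosome 10 than on 18 of the 19, with 17 of these passing, and lower than on chromosome 20 (adjusted p = 0.192, permutation test). The nearest to chromosome 10 in the other classes was chromosome 11, with a spread of 4.67 for high and 10.2 for intermediate cytosines.

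Low cytosines gave no such single direction. Their spread was 4.47 ± 0.278 on chromosome 10 and 4.11 ± 0.201 elsewhere, higher on chromosome 10 in 10 of 11 animals (difference 0.361 ± 0.220, adjusted p = 0.00251, exact permutation test). Without ratios of exactly 0 or 1 this difference was 0.240 ± 0.388 and did not pass the test (adjusted p = 0.0769, exact permutation test). The low cytosines of chromosome 10 had a higher mean level, 8.11% against 5.88%, and 71.9% of them lay below 0.1 against 83.8% elsewhere. When cytosines were compared within steps of 0.05 of the mean of the other animals, the direction turned: the difference was -0.422 ± 0.326, lower on chromosome 10 in 11 of 11 animals. At matched level the spread was thus lower on chromosome 10 in all 3 classes, with differences of -2.79 for intermediate and -1.84 for high cytosines. Ratios of exactly 1 were listed for 10.9% ± 3.03 (SD, n = 11) of the high cytosines of chromosome 10 and 23.8% ± 4.30 elsewhere, and ratios of exactly 0 for 31.8% ± 9.50 and 40.1% ± 12.1 of the low ones. Such ratios are more frequent where reads are few and where the level lies close to 0 or 1. Of the high cytosines, 53.2% had a mean ratio above 0.9 on chromosome 10 and 59.0% elsewhere. The reads per cytosine were not analysed here, so the part of depth in the smaller spread was not tested, nor was that of reads matching several places.

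**Figure D4:**
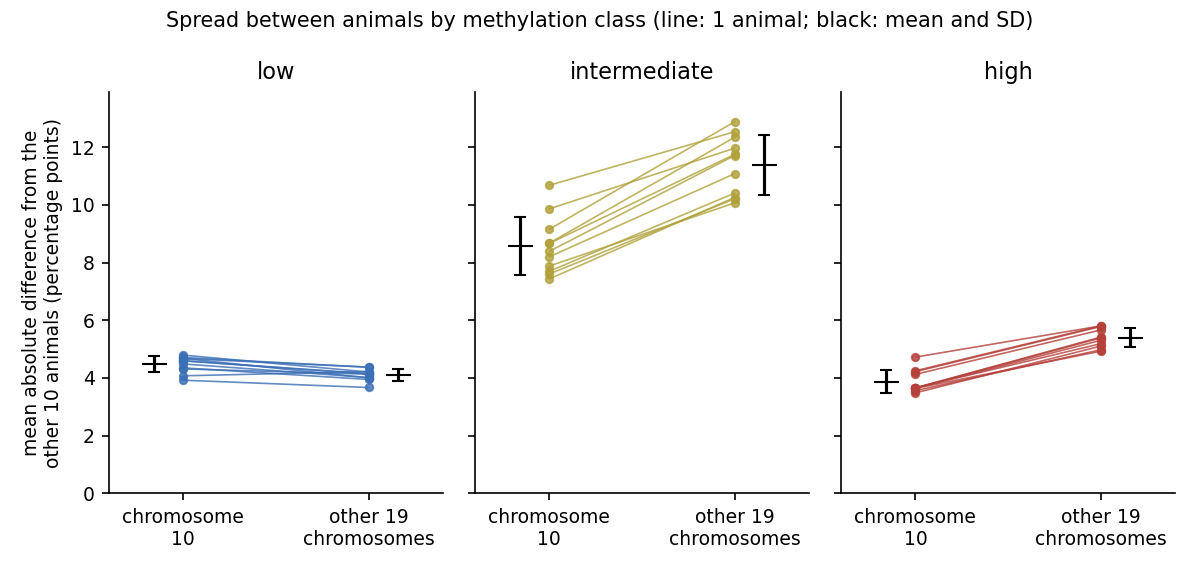
Mean absolute difference of each of 11 animals from the other 10, in percentage points, on chromosome 10 (left of each panel) and on the other 19 numbered chromosomes (right), for low, intermediate and high cytosines. Each line is 1 animal and black marks give the mean and SD. All 11 lines rise for intermediate and high cytosines, and 10 of 11 fall for low ones.

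Within chromosome 10, plus-strand cytosines varied less than minus-strand ones in the high and the intermediate class. High plus-strand cytosines had a spread of 3.62 ± 0.393 and high minus-strand ones 4.55 ± 0.425, a difference of -0.937 ± 0.187 (lower on the plus strand in 11 of 11 animals, adjusted p = 0.00146, exact permutation test). Intermediate ones had 7.96 ± 1.03 if plus-strand and 9.86 ± 0.986 if minus-strand, a difference of -1.90 ± 0.294 with the same count and adjusted p. For low cytosines the values were 4.48 ± 0.308 and 4.46 ± 0.278, and the difference of 0.0207 ± 0.190 did not pass the test (higher on the plus strand in 5 of 11 animals, adjusted p = 0.725). At matched level it was -0.395 ± 0.221, lower on the plus strand in 11 of 11 animals (adjusted p = 0.00110, exact permutation test). Without the 4 animals named above it was 0.232 ± 0.213, higher on the plus strand in 6 of 7 (adjusted p = 0.0527, exact permutation test), so its direction depended on the setting. The comparison with the other chromosomes held on each strand: among minus-strand cytosines alone, the difference was -0.951 ± 0.223 for high and -1.63 ± 0.718 for intermediate cytosines, and among plus-strand ones -1.67 ± 0.221 and -3.31 ± 0.621. In the first 50 blocks the difference from the other chromosomes was -1.79 ± 0.211 for high cytosines and in the later blocks -0.999 ± 0.194. For low cytosines these differences were 0.352 ± 0.234 and 0.369 ± 0.292. Early and later blocks were not tested against each other. In the groups of 10 blocks the median SD of high cytosines over animals was 2.89 to 3.83 percentage points up to block 60. It was 3.68 to 4.42 from block 61 to block 90 and 5.69 from block 91 onward, against 5.34 on the other chromosomes. By this measure the last group did not lie below the other chromosomes, and its spread was not tested.

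Isolated cytosines varied more between animals than those in dense runs. Low isolated cytosines, 89 in the median animal, had a spread of 5.74 ± 0.588 and low cytosines of dense runs 4.09 ± 0.249, a difference of 1.65 ± 0.496 in 11 of 11 animals (adjusted p = 0.00146, exact permutation test). For intermediate cytosines the spread was 10.9 ± 1.88 over 35 isolated cytosines and 8.22 ± 0.962 in dense runs, a difference of 2.64 ± 1.61 in 11 of 11 animals with the same adjusted p. For high cytosines it was 4.32 ± 0.771 over 122 isolated cytosines and 3.70 ± 0.359 in dense runs. That difference, 0.618 ± 0.571, was positive in 10 of 11 animals (adjusted p = 0.00439) and was the smallest of the 3. Without the 4 animals named above it was 0.628 ± 0.720 (n = 7, adjusted p = 0.0625, exact permutation test) and no longer passed the threshold of 0.05. At matched level the differences were smaller, 0.838 ± 0.560 for low cytosines in 11 of 11 animals and 0.392 ± 0.564 for high ones in 8 of 11 (adjusted p = 0.00110 and 0.0381, exact permutation test).

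Pairs of animals were alike on chromosome 10. Over the 55 pairs, the Pearson correlation across its cytosines had a median of 0.962, from 0.952 to 0.971, and on the other 19 chromosomes a median of 0.959, from 0.945 to 0.967. Cytosines are not independent replicates, so these values are descriptions. A median of 94.3% of cytosines lay within 20 percentage points between 2 animals, 80.1% within 10 and 58.3% within 5. Elsewhere these medians were 92.5%, 78.1% and 55.3%, and the share was higher on chromosome 10 in 55 of 55 pairs within 20 points and in 49 of 55 within 10 and within 5 points. The correlation was higher in 46 of 55 pairs, and chromosome 11 had a median of 0.965, above that of chromosome 10.

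Large differences between animals were few. An SD over animals above 0.2 was found for 57 cytosines of chromosome 10, or 0.696%, against 1.71% elsewhere, and above 0.3 for 0 of 8187 against 61 of 46397. The largest SD of a single cytosine was 0.288, at position 12957250 on the minus strand, with ratios of 0 (lowest animal), 0.250 (median) and 1 (highest). This rested largely on 1 animal, 2654, with the ratio of 1, and without it the SD was 0.186. The nearest listed cytosine of its strand, 8 bp away, had a mean of 0.746 and an SD of 0.115, so the large variation was not shared at the same size by its neighbour. The next was at position 31328384 on the plus strand, with an SD of 0.287 and ratios of 0, 0.556 and 0.952. Its neighbour at 4 bp had an SD of 0.238. The third was at position 1195452 on the plus strand, with an SD of 0.276, ratios of 0.0508, 0.270 and 0.875, and a neighbour at 4 bp with a mean of 0.877 and an SD of 0.0904. In the first and the third, a variable cytosine lay beside a steadier one, and in the second both varied.

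Among dense runs, the 3 with the largest SD of the run mean were all intermediate, of 5 cytosines and on 1 strand. The run chr10:12684078-12684194 on the plus strand had an SD of 18.9 percentage points and run means of 19.5% (lowest animal), 38.6% (median) and 85.9% (highest). A single animal, 5295, stood above the rest, whose highest value was 55.3%, and without it the SD was 12.5. The run chr10:91969774-91969802 on the plus strand had an SD of 14.8 and means of 23.9%, 53.9% and 66.2%, with 3 animals from 23.9% to 33.6% and 8 from 46.1% upward. The run chr10:74984416-74984484 on the minus strand had an SD of 12.1 and means of 32.2%, 54.4% and 72.3%. These runs stood far from the typical dense run of the chromosome, for which the median SD was 2.20 percentage points overall and 3.30 among intermediate runs. Elsewhere the median SD of intermediate dense runs was 6.95.

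**Figure D5:**
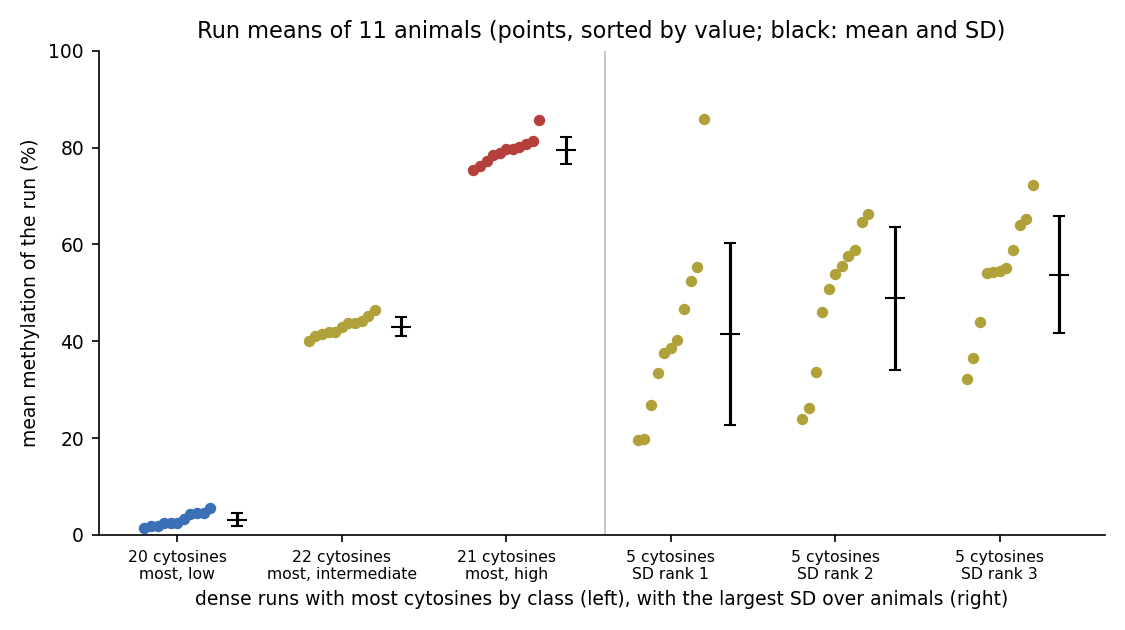
Mean methylation (%) of 6 dense runs of chromosome 10 in each of 11 animals, 1 point per animal sorted by value, with the mean and SD in black. The runs with the most cytosines in each class (left) vary by an SD of 1.38 to 2.80 percentage points, and the 3 runs with the largest SD (right) by 12.1 to 18.9, with 1 animal at 85.9% in the first of them.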

How the data were processed

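The authors trimmed reads (bases of quality below 20 and reads under 20 bp removed), aligned them with RRBSMAP (stated setting -w 100) against the Yan et al. genome, kept CpGs with a coverage of at least 10 and deposited 1 methylation ratio per cytosine and animal. The methods name MspI and the EpiTect kit, whereas the labels name TaqαI beside MspI and, for conversion, EZ-96 DNA Methylation-Gold. Positions are those of that genome, and no gene annotation or sequence of it was used. Columns are headed by animal numbers that no sample label holds, so they were used as 11 animals of 1 group. No value was missing, no 2 columns were identical, and the depth of a cytosine is unknown beyond the stated minimum.

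Classes, runs, 1-Mb blocks and spread were computed with Python 3.11.15, numpy 2.4.6, pandas 2.3.3 and scipy 1.17.1, and the spread calculation was tested on simulated data. Density is per Mb between the first and the last listed cytosine. The 3 comparisons of spread, each in 3 classes, were tested by exact two-sided permutation of the signs of the 11 paired differences, with Benjamini-Hochberg adjustment over 9 tests. Named were the 5 fullest blocks, the dense run with most cytosines in each class, and the 3 dense runs and 3 cytosines with the largest SD. The members, rules and lists were chosen with earlier results of these data known. Alternatives were other class bounds, run gaps, run sizes and block sizes, leaving out ratios of exactly 0 or 1, matching by level, centring, counting a CpG once, other comparison chromosomes, single strands and leaving out each animal. Leaving out 4 animals, the division after the 50th block and leaving out fragments with the 4, 8 and 4 bp string were added after seeing the data.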

Additional observations from a re-analysis of the deposited data

How the results depend on the processing

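The smaller spread of high and of intermediate cytosines on chromosome 10 kept its direction and an adjusted p below 0.05 under all 13 alternatives and with each of 11 animals left out. Over the 13 alternatives the differences ran from -1.86 to -0.951 and from -3.47 to -1.63 percentage points. For low cytosines the difference kept both under 11 of 13, and was 0.181 with class bounds of 0.2 and 0.8. Without ratios of exactly 0 or 1 the difference was 0.240 (adjusted p = 0.0769, exact permutation test), and at matched level -0.422. The cause of the first was not tested. The second compares cytosines of like level, and the cause of its turn in direction was not tested either. The plus-against-minus difference of low cytosines turned to -0.0698 with class bounds of 0.2 and 0.8, -0.0456 without ratios of exactly 0 or 1 and -0.395 at matched level, and ran from -0.0265 to 0.0827 with each animal left out in turn. Without the 4 animals together it was 0.232. For high and intermediate cytosines the difference kept its direction and threshold under all 5 alternatives. Isolated against dense cytosines did so under 9 of 9 for low and intermediate cytosines and 8 of 9 for high ones, the exception being 0.628 without the 4 animals. At matched level these differences were 0.838 (low), 2.25 (intermediate) and 0.392 (high).

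The low share was 21.2%, the intermediate share 28.1% and the high share 50.7% under class bounds of 0.2 and 0.8, so that low became the smallest class. Removing exact 0 and 1 ratios gave 19.5%, 18.6% and 61.9% in that order, and with a CpG counted once 24.9% were low. Each change follows from the altered definition. The share in dense runs was 62.3% with a gap of 500 bp, 66.6% with 2000 bp, 20.0% for runs of at least 10 (26.0% elsewhere) and 60.4% with a CpG counted once. The median correlation of pairs was 0.909 as a Spearman correlation and 0.943 when exact 0 and 1 ratios were removed. The median density was 69.5 to 72.0 per Mb under the other block sizes and with a CpG counted once. With each animal left out in turn, chosen after seeing the data, the SD of the most variable cytosine was 0.186 to 0.304 and that of the most variable run 12.5 to 19.9. A higher coverage minimum was not run, because it needs the reads per cytosine.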
